A study of Mus musculus with 16 samples.

Results

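RAW264.7 cells given oxidised low-density lipoprotein (oxLDL, 50 µg/ml) together with tirzepatide were compared with cells given vehicle only, which was culture medium. Each side held 4 libraries of RNA sequencing, picked by their sample titles, so that 8 of the 16 libraries of the series form the comparison. The labels state the tirzepatide dose as 100 nmol/ml, and whether that volume unit is what was meant could not be checked here. RAW264.7 is a mouse macrophage-like leukemia line, and no cell in any group carried a deletion or a transgene according to the labels. The other 8 libraries, 4 with oxLDL alone and 4 with tirzepatide alone, entered the fit and are used to place single genes. The length of treatment is not among the labels, nor is whether libraries 1 to 4 of a group came from separate cultures. P-values therefore reflect the spread among these particular samples, which may be technical. The comparison asks what the drug and the lipoprotein together leave changed in the cell's transcripts, relative to cells that received neither.

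Macrophages take up oxLDL through scavenger receptors, break down its lipid in lysosomes and store the surplus cholesterol as esters in lipid droplets, which is how foam cells of the arterial wall arise. The oxidised lipids also act on stress and immune signalling, through NRF2 among other transcription factors. Tirzepatide is a peptide agonist of the receptors for the incretin hormones GIP and GLP-1, which signal through cyclic AMP.

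The 8 libraries held 15877270 to 16880485 estimated counts and 12951 to 13260 genes above 0. Markers of macrophages were high in all of them, with a summed level of 17600 to 18900 TPM (a transcript level scaled for length and depth) under vehicle and 22000 to 24100 TPM with both agents. These groups did not overlap (exact two-sided permutation test, p = 0.0286, the smallest that 4 against 4 libraries allow), and the sum was carried by Lyz2. Cell number and RNA content per cell cannot be told apart in such bulk samples. Summed levels of markers of fibroblasts, T cells, B cells and erythroid cells overlapped between the groups, and those of islet cells and hepatocytes were at most 1.16 TPM in any of the 8 libraries.

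Several libraries stood apart. Transcripts of pancreatic acinar cells, which a macrophage line should lack, summed to 461 and 244 TPM in vehicle libraries 1 and 2, to 58.7 and 27.8 TPM in vehicle libraries 3 and 4, and to between 9.21 and 74 TPM with both agents (exact permutation test, p = 0.171). Of the 34 listed acinar genes in the table, 19 were tested and 16 of them were called lower with both agents, a set of calls that disappeared when vehicle libraries 1 and 2 were left out (0 called by edgeR, median log2 change −0.39). Combination library 2 lay closer to vehicle than the other 3 libraries with both agents. Over the 1015 genes called without it, this library showed a median of 0.555 of the change, against 0.742 to 1.11 for the other combination libraries judged in the same way. Set against tirzepatide alone, it showed a median of 0.206 of the difference that the other 3 combination libraries had over 444 genes, and it fell within the range of the 4 tirzepatide libraries for 184 of these genes (41.4%). The other combination libraries fell within that range for 3.17% to 6.45% of the genes called without them. Those sets, called with library 2 in the fit, held only 63, 93 and 58 genes, so the shares are not over like genes. Values without these libraries are therefore given beside results that depend on them.

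Of 11319 tested genes, 1012 (8.94%) differed between both agents and vehicle at an adjusted p under 0.05 by edgeR's quasi-likelihood test, 531 higher (4.69%) and 481 lower (4.25%). Most of these differences were small. Of the genes called higher, 491 changed by at most 1.5-fold, 25 by 1.5-fold to 2-fold and 15 by more than 2-fold. Among genes called lower, these numbers were 397, 43 and 41, and 16 of the last 41 were acinar genes. The groups did not overlap in TPM for 523 of the called genes. Over all tested genes this held for 1016 (8.98%), of which 5.71% of the tested genes lay above vehicle and 3.27% below. Leaving out combination library 2 gave 1020 calls (8.94%; 4.39% higher and 4.55% lower), 797 of them shared with the calls from all libraries. Leaving out vehicle libraries 1 and 2 gave 967 (8.42%; 4.19% higher and 4.23% lower), of which 630 were shared, and leaving out all 3 of these libraries gave 1188 (10.4%; 5.07% higher and 5.28% lower), of which 678 were shared. Single libraries moved the number of calls further. It was 1450 without vehicle library 1, 475 without vehicle library 2, 506 without vehicle library 3, 526 without combination library 1 and 627 without combination library 4.

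**Figure D1:**
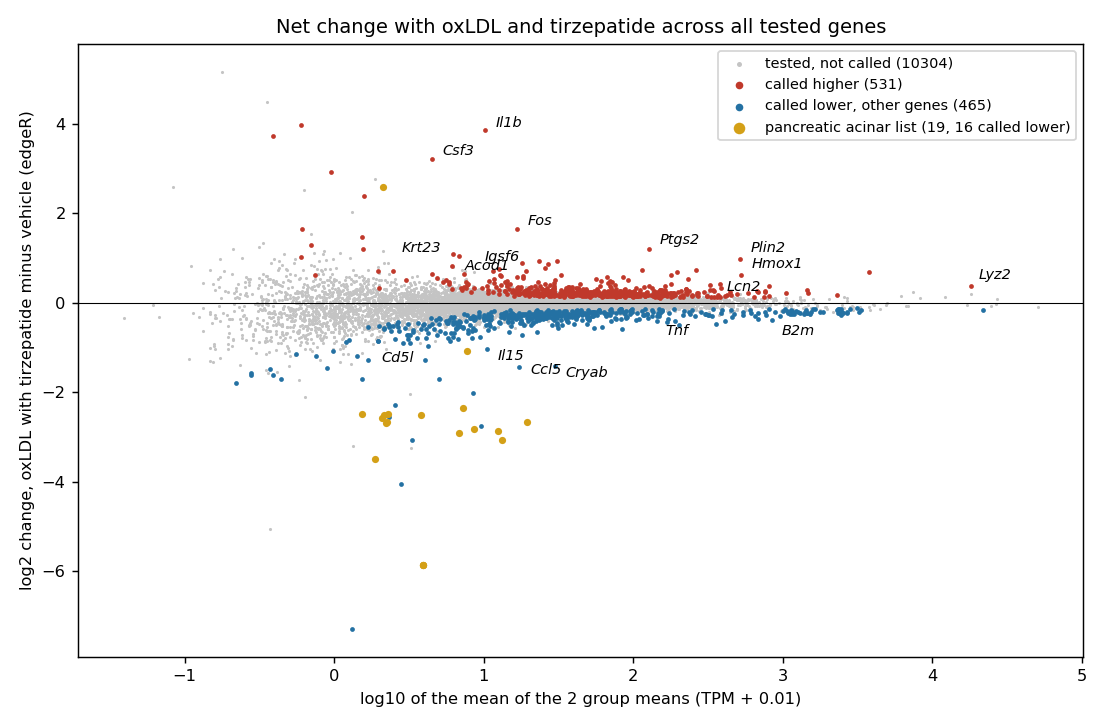
Log2 change of each of the 11319 tested genes with both agents against vehicle (vertical axis, edgeR) by the mean level of the gene (horizontal axis, log10 of TPM + 0.01). Colours mark the genes called higher, the genes called lower and the acinar genes. Il1b and Csf3 lie above 3 on the log2 scale, Ccl5 and Cryab below −1, most other called genes lie close to 0, and acinar genes make up 16 of the 41 called genes that fell by more than 2-fold.

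Among cytokine genes Il1b and Csf3 rose steeply, while the more abundant Tnf fell modestly. Of 16 tested inflammatory cytokine genes, 3 rose (18.8%, beside 4.69% of all tested genes) and 3 fell (18.8%, beside 4.25%). Their median log2 change was −0.02 beside −0.003 over all tested genes. Without vehicle library 1, 5 fell. The riser with the largest change was Il1b (ENSMUSG00000027398), which encodes the pyrogenic cytokine interleukin 1 beta. Its level was 1.15, 1.57, 2 and 0.457 TPM in vehicle libraries 1 to 4, and 23.2, 3.91, 25.9 and 23.4 TPM in libraries 1 to 4 with both agents. Combination library 2 was the lowest of its group by far, yet still above every vehicle library. The log2 change was 3.85 (SE 0.41, adjusted p = 2.06e-06 by edgeR) and 4.19 without combination library 2. Csf3, the granulocyte colony-stimulating factor, was at 1.35, 0.587, 0.501 and 0.965 TPM under vehicle and at 8.43, 1.92, 10.8 and 11.2 TPM with both agents. The groups did not overlap, again with library 2 nearest to vehicle, and the log2 change was 3.22 (SE 0.4, adjusted p = 1.58e-05), or 3.54 without library 2. Both transcripts remained low in absolute terms, at means of 19.1 ± 10.2 TPM and 8.1 ± 4.3 TPM (SD, n = 4).

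Tnf, the tumour necrosis factor gene and far more abundant, moved the other way. It was at 158, 163, 163 and 167 TPM under vehicle and at 108, 149, 122 and 116 TPM with both agents. All 4 treated libraries were below all 4 vehicle libraries, at a log2 change of −0.4 (SE 0.07, adjusted p = 0.00041), which was −0.51 without combination library 2. Il15, a growth factor of natural killer and memory T cells, was at 12.3, 17.7, 15.7 and 12.7 TPM under vehicle and fell to 5.56, 7.98, 5.89 and 6.45 TPM, without overlap (log2 change −1.03, SE 0.15, adjusted p = 9.03e-05). Il6 stayed low in both groups, at 1.68 ± 0.133 and 2.29 ± 0.292 TPM (SD, n = 4), and its log2 change of 0.52 (SE 0.38) did not pass the test (adjusted p = 0.444).

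Chemokine genes, whose products recruit other leukocytes, fell where they changed. Of 8 tested, 4 fell (50%, beside 4.25% of all tested genes), with a median log2 change of −0.35. None was called higher by edgeR or DESeq2 (1 was higher at an unadjusted p under 0.05). Ccl5, which attracts T cells and monocytes, was nearly constant under vehicle at 25.2, 24.5, 25.7 and 25.4 TPM and dropped to 8.01, 12.6, 7.88 and 8.86 TPM. Every treated library was below every vehicle library by a wide margin, and the log2 change was −1.43 (SE 0.19, adjusted p = 2.64e-05). The macrophage inflammatory proteins encoded by Ccl3 and Ccl4 fell too. Ccl4 was at 102, 103, 101 and 98.4 TPM under vehicle and at 54.1, 89.9, 67.1 and 58.1 TPM with both agents, without overlap (log2 change −0.6, SE 0.11, adjusted p = 0.00129). Ccl3 went from 412 ± 8.91 to 300 ± 54 TPM (SD, n = 4), at a log2 change of −0.47 (SE 0.08, adjusted p = 0.000704). Ccl9 fell by 0.37 on the log2 scale, from 40 ± 1.75 to 31.1 ± 3.7 TPM (SD, n = 4). In all 4 genes combination library 2 was the treated library nearest to vehicle. Leaving it out kept these 4 calls and added 1 call, Cxcl2, at a log2 change of 0.33 (adjusted p = 0.00864) against 0.24 (adjusted p = 0.0949) with all libraries. The monocyte attractant Ccl2 ranged from 10.9 to 13.2 TPM under vehicle and from 5.55 to 13.5 TPM with both agents, and its log2 change of −0.33 was not called (adjusted p = 0.429). That value was −0.16 without combination library 1 and −0.58 without combination library 2.

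**Figure D2:**
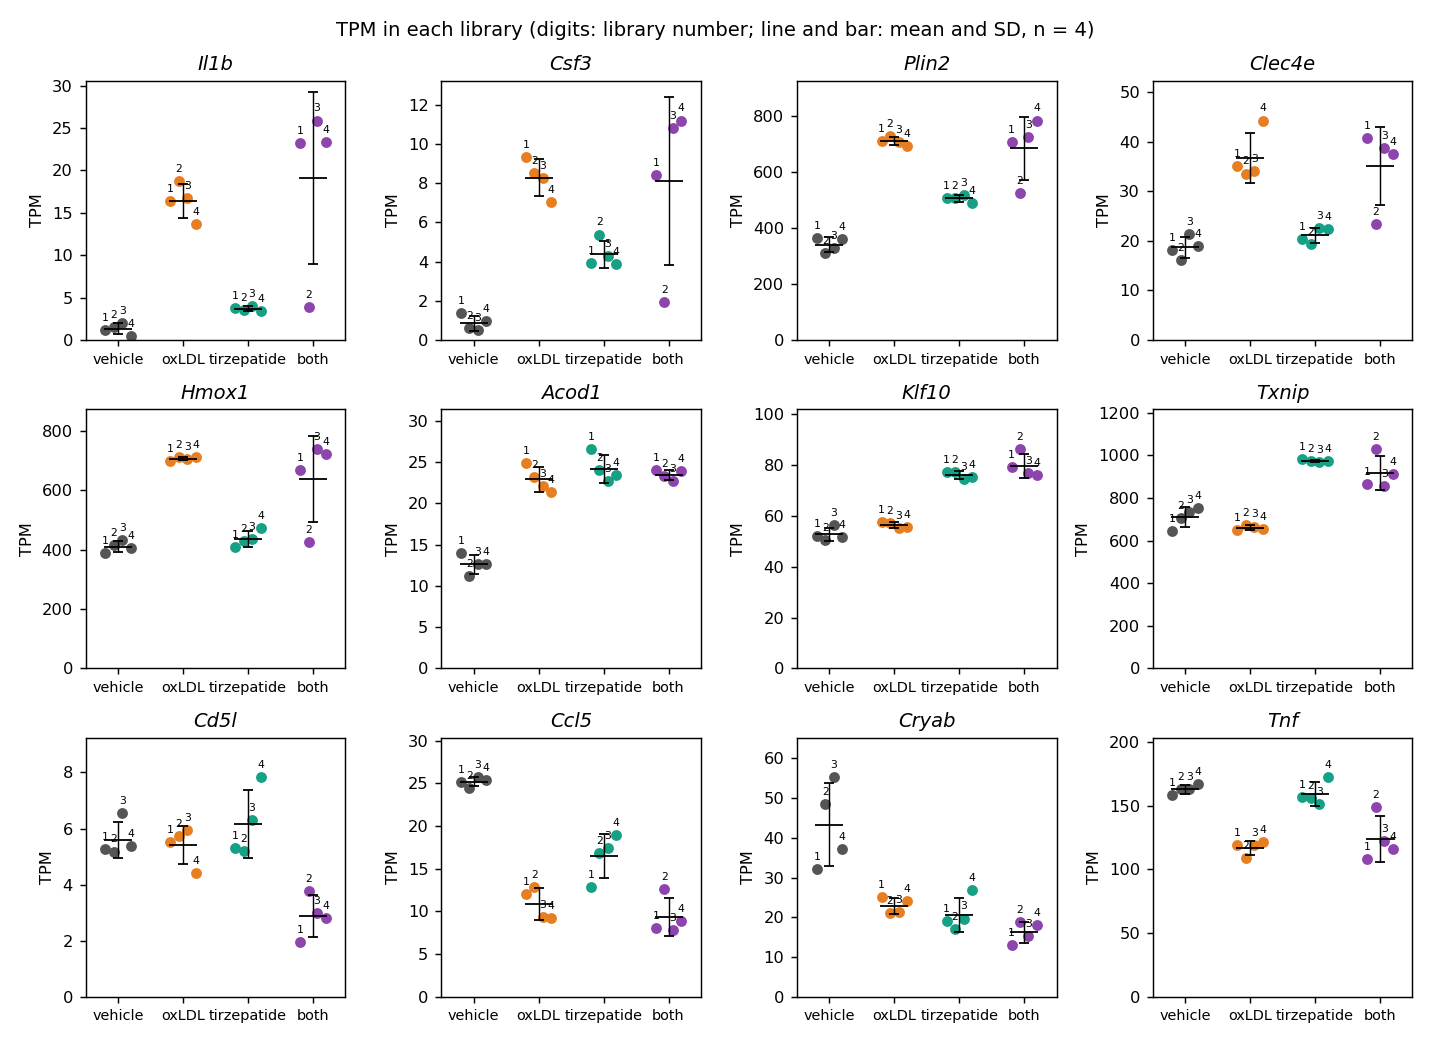
TPM of 12 genes in each of the 16 libraries, with the library number above each point and the mean and SD of each group (n = 4) as a line and bar. For Il1b, Csf3, Clec4e and Hmox1 the libraries with both agents include 3 high ones and library 2 well below them, whereas for Acod1 and Klf10 all 4 libraries with both agents lie together above vehicle.

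Fos and Ptgs2, which respond rapidly to stimulation, rose, with combination library 2 at or near the level of vehicle. Fos, a subunit of the AP-1 transcription factor, was at 7.43, 7.36, 9 and 8 TPM under vehicle and at 24.8, 8.45, 33.9 and 33.7 TPM with both agents, so that 3 treated libraries were high and the second lay inside the vehicle range. Its log2 change was 1.65 (SE 0.24, adjusted p = 0.000108), and 1.93 without that library. Ptgs2, the inducible cyclooxygenase that starts prostaglandin synthesis, showed the same layout, with 84.8, 69.7, 71.9 and 78.6 TPM under vehicle and 191, 79.9, 222 and 216 TPM with both agents (log2 change 1.2, SE 0.17, adjusted p = 7.22e-05; 1.44 without library 2). Egr1, an immediate early zinc finger factor, was below vehicle in every treated library, at 5.59 to 7.2 TPM against 8.32 to 10 TPM (log2 change −0.6, SE 0.08, adjusted p = 6.5e-05). Of the 29 tested AP-1, EGR and Krüppel-like factor genes, 5 rose (17.2%, beside 4.69% of all tested genes) and 4 fell (13.8%, beside 4.25%), with a median of −0.06. The number that fell was 8 without vehicle library 1 and 2 without vehicle library 2, vehicle library 3, combination library 1 or combination library 4, and the number that rose was 3 without any 1 of vehicle libraries 2 to 4 or of combination libraries 3 and 4.

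The subunits and feedback inhibitors of NF-kB, the factor that drives many cytokine genes, showed little change at the transcript level. Of 21 tested, 2 fell (9.52%, beside 4.25% of all tested genes) and none was called higher by edgeR. At an unadjusted p under 0.05, 2 were higher and 5 lower, and with DESeq2 1 was higher and 3 were lower. The number that fell was 6 without combination library 2 and 0 without any 1 of vehicle libraries 2 to 4 or of the other combination libraries, and it was 1 without any 1 of oxLDL libraries 1, 2 and 4 and tirzepatide libraries 2 and 3. The number called higher was 1 without vehicle library 2. The list of classical (M1) activation markers had 13 tested members with a median of 0.14. In each direction 2 of them were called (15.4%, beside 4.69% higher and 4.25% lower over all tested genes). Nos2, the inducible nitric oxide synthase, is one that fell, from 55.5, 71.5, 81.5 and 82.7 TPM to 42.5, 57.9, 52.3 and 46.6 TPM. The lowest vehicle library lay below the highest treated one, and the log2 change was −0.55 (SE 0.09, adjusted p = 0.000352). Markers of alternative (M2) activation had 8 tested members, of which 3 fell (37.5%, beside 4.25%). That number was 1 without vehicle library 4, combination library 1 or combination library 4. The M2 hallmarks Arg1 and Mrc1 were near 0, at no more than 0.168 and 0.022 TPM in any of the 8 libraries, and were not tested.

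Lipid handling changed in selected genes rather than across whole lists. Plin2, which coats lipid droplets, had the smallest p of the lipid genes. It was at 363, 310, 330 and 361 TPM in the vehicle libraries and at 708, 524, 727 and 785 TPM with both agents. No library overlapped, and the log2 change was 0.97 (SE 0.08, adjusted p = 2.48e-08). Cpt1a, the carnitine transferase that admits fatty acids to mitochondria, rose from 27.5, 24.6, 24.4 and 27.4 TPM to 41.5, 33.8, 43.3 and 41.5 TPM (log2 change 0.62, SE 0.07, adjusted p = 2.31e-06). Hilpda, an inhibitor of the triglyceride lipase ATGL, had 43.3, 47.3 and 50.9 TPM in combination libraries 1, 3 and 4 and 21.4 TPM in library 2, beside 17.4 to 27.4 TPM under vehicle (log2 change 0.93, SE 0.18, adjusted p = 0.00166; 1.14 without library 2). In the list of 19 tested lipid droplet and PPAR target genes, 5 rose (26.3%, beside 4.69% of all tested genes) and 1 fell (5.26%, near the 4.25% of all tested genes). The member that fell, the lipase gene Lipe, had an adjusted p of 0.048 and a log2 change of −0.25. It was not called in 12 of the 16 fits with 1 library left out, which were those without vehicle library 2 or 3, any oxLDL library, tirzepatide library 1, 2 or 3, or combination library 1, 3 or 4, and its adjusted p there ran from 0.05 to 0.215. Without vehicle library 1 or 4, 2 members fell. Of 18 tested markers of foam cells and lipid-associated macrophages 4 rose (22.2%, beside 4.69%), and 2 rose without combination library 1. None of them was called lower by edgeR or DESeq2, while 3 were lower at an unadjusted p under 0.05, 2 were called lower without vehicle library 4 and 1 without tirzepatide library 2.

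Among the 9 tested scavenger receptors 3 rose (33.3%, beside 4.69% of all tested genes) and 2 fell (22.2%, beside 4.25%). The number that fell was 1 without vehicle library 4, combination library 1 or combination library 4. Msr1, the class A scavenger receptor that binds modified lipoproteins, was at 82.6, 69.6, 68 and 79.8 TPM under vehicle and at 115, 105, 106 and 115 TPM with both agents. The groups were separate and tight, at a log2 change of 0.51 (SE 0.07, adjusted p = 5.2e-05). Scarb2, a receptor of the lysosomal membrane, rose by 0.28 on the log2 scale (adjusted p = 0.00183). The other main oxLDL receptor, Cd36, was below 0.2 TPM in all 8 libraries and was not tested.

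Both main cholesterol exporters fell. Abca1 and Abcg1 encode the transporters that pass cholesterol to apolipoprotein A-I and to high-density lipoprotein. Abcg1 was at 206, 219, 233 and 231 TPM under vehicle and at 128, 203, 157 and 140 TPM with both agents, without overlap (log2 change −0.4, SE 0.08, adjusted p = 0.00272). Abca1 was at 151, 153, 156 and 170 TPM under vehicle and at 113, 157, 125 and 120 TPM with both agents, where library 2 lay inside the vehicle range (log2 change −0.3, SE 0.06, adjusted p = 0.00412). Without combination library 2 these log2 changes were −0.56 and −0.42. Across 22 tested cholesterol export and LXR target genes 6 fell (27.3%, beside 4.25% of all tested genes) and 1 rose (4.55%, near the 4.69% of all tested genes), with a median of −0.01. Without vehicle library 3 or combination library 4, 3 of them fell. The number that rose was 3 without combination library 2, 2 without vehicle library 4 and 0 without combination library 1. Srebf2, the master regulator of cholesterol synthesis, fell by 0.42 on the log2 scale (adjusted p = 0.000908). Most of the 24 tested cholesterol synthesis genes were not called, as 4 fell (16.7%, beside 4.25%) and none was called higher by edgeR or DESeq2 (1 at an unadjusted p under 0.05). Without vehicle library 3 or combination library 1, 2 of them fell. Scd2, a stearoyl-CoA desaturase, was at 144, 148 and 150 TPM in combination libraries 1, 3 and 4, at 228 TPM in library 2, and at 214 to 261 TPM under vehicle (log2 change −0.49, adjusted p = 0.000819; −0.67 without library 2).

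Genes that NRF2 switches on, which make glutathione and NADPH and break down heme, rose in 13 cases. Of 29 tested, 13 were called higher (44.8%, beside 4.69% of all tested genes), with a median log2 change of 0.17. None was called lower by edgeR or DESeq2 (2 were lower at an unadjusted p under 0.05, and 1 was called lower without vehicle library 1). Leaving out any 1 of the 16 libraries gave 10 to 13 members called higher, leaving out combination library 2 gave 13 with a median of 0.22, and leaving out vehicle libraries 1 and 2 gave 11 higher and 1 lower. Slc7a11, the cystine carrier that feeds glutathione synthesis, was at 90.8, 79, 80.5 and 89.2 TPM under vehicle and at 153, 116, 151 and 152 TPM with both agents (log2 change 0.74, SE 0.07, adjusted p = 6.15e-07). The first enzymes of the pentose phosphate route, which supplies NADPH, rose with little spread between libraries. G6pdx went from 319, 307, 323 and 335 TPM to 447, 425, 436 and 435 TPM (log2 change 0.43, SE 0.05, adjusted p = 2.06e-06), and Pgd changed by 0.42 (SE 0.04, adjusted p = 2.31e-06). For these 3 genes no treated library overlapped with vehicle. Hmox1, heme oxygenase 1, differed in this respect, with 668, 425, 740 and 722 TPM beside 388 to 434 TPM under vehicle, so that library 2 lay inside the vehicle range (log2 change 0.62, SE 0.1, adjusted p = 0.000213; 0.77 without library 2). Srxn1, which repairs overoxidised peroxiredoxins, rose by 0.49 (adjusted p = 0.000543), the thioredoxin reductase gene Txnrd1 by 0.23 (adjusted p = 0.00611) and Gclm, a subunit of the enzyme that limits glutathione synthesis, by 0.27 (adjusted p = 0.0212). Txnrd1 was not called without vehicle libraries 1 and 2 (adjusted p = 0.064).

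NRF2 binds antioxidant response elements, and the promoters of the 3 called targets with the smallest p that hold the element's core are shown for this reason. Sequences are from RefSeq, build GRCm38.p6, and give the 250 bases before the gene start, written 5′ to 3′ in the direction of the gene. Capitals mark matches to TGACNNNGC or to its reverse complement. Txnrd1 has 3 promoters in that source, of which 1 is shown.
G6pdx, chrX:74428881-74429130, minus strand: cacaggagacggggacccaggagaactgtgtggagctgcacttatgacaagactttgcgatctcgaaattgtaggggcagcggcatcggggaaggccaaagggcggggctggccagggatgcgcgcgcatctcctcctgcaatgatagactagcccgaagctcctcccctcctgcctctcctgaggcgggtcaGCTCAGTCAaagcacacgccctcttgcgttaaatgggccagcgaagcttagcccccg
Txnrd1, chr10:82858956-82859205, plus strand: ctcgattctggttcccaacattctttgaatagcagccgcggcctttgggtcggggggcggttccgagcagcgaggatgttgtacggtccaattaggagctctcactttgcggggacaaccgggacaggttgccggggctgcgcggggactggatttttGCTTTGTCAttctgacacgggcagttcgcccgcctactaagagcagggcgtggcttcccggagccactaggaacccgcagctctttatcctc
Gclm, chr3:122245307-122245556, plus strand: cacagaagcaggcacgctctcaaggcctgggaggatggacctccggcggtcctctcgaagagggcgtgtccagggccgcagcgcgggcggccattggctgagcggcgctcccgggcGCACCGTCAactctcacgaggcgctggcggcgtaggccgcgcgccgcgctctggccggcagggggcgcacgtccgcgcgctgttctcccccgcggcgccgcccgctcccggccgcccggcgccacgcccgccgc
The matches lie at −57 to −49 in G6pdx, −92 to −84 in Txnrd1 and −134 to −126 in Gclm, counted from the gene start. Over both strands the core occurred in 4 of the 24 tested NRF2 targets with a promoter in that source, in 4 of the 9 called ones and in 14% of 8888 promoters of tested genes. The same core occurred in 3 of 22 tested interferon-stimulated genes and in 3 of the 7 called ones, which were lower. Among lysosomal genes it occurred in 8 of 32 tested and 1 of 6 called. These are matches of letters, not measured binding sites.

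Interferon-stimulated genes, the antiviral program that type I interferon switches on, fell where they were called. Of 30 tested, 10 fell (33.3%, beside 4.25% of all tested genes), with a median log2 change of −0.23. None was called higher by edgeR or DESeq2 or at an unadjusted p under 0.05. The number that fell was 6 without combination library 1, 10 without combination library 2 and 7 without vehicle libraries 1 and 2. Usp18, a protease that removes ISG15 and damps interferon signalling, was at 52.4, 50.2, 51.8 and 52.4 TPM under vehicle and at 32.3, 45.2, 39.5 and 39.2 TPM with both agents. The vehicle libraries were almost equal and all treated ones lay below them (log2 change −0.39, SE 0.07, adjusted p = 0.00169). Ifih1, the RNA sensor MDA5, fell from 7.75, 9.14, 8.54 and 9.41 TPM to 6.38, 6.64, 7.18 and 5.75 TPM (log2 change −0.41, SE 0.09, adjusted p = 0.00433). Herc6 (log2 change −0.49, adjusted p = 0.00123) and Ifi44 (log2 change −0.45, adjusted p = 0.00542) fell without overlap of libraries as well. Oas3, an oligoadenylate synthetase that activates RNase L, changed by −0.33 (adjusted p = 0.00912), with 15.6, 19.4, 22 and 23 TPM against 23.8 to 26.6 TPM.

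Interferon signalling acts through response elements with repeated GAAA, and the core GAAANNGAA was searched on both strands in the same promoters. The called members with the smallest p that hold it, Ifih1 and Oas3, are shown, with capitals at the matches.
Ifih1, chr2:62646256-62646505, minus strand: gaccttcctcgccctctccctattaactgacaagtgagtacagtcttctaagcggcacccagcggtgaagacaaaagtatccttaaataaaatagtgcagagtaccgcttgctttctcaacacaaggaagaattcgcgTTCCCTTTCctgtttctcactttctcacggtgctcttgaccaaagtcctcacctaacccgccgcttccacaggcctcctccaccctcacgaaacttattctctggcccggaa
Oas3, chr5:120777660-120777909, minus strand: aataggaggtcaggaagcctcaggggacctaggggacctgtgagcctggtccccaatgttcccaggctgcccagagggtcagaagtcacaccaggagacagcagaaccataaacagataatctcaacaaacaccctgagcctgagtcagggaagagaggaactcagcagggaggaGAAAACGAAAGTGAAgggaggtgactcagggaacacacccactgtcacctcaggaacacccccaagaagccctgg
Oas3 holds a pair of overlapping matches between −75 and −61, and Ifih1 holds 1 on the opposite strand at −112 to −104. The core occurred in 10 of 22 tested interferon-stimulated genes with a promoter there, in 3 of the 7 called ones and in 7.22% of promoters of all tested genes.

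MHC class I genes, which present peptides to cytotoxic T cells, fell in 9 of 22 cases tested (40.9%, beside 4.25% of all tested genes), at a median of −0.2. They rose in 1 case (4.55%, near the 4.69% of all tested genes). B2m, the light chain shared by all class I molecules, had 990, 960, 925 and 968 TPM under vehicle and 770, 794, 695 and 697 TPM with both agents, without overlap (log2 change −0.39, SE 0.05, adjusted p = 4.84e-05). The heavy chain genes H2-K1 (log2 change −0.39, adjusted p = 0.000434), H2-D1 (−0.27, adjusted p = 0.00123) and H2-Q6 (−0.56, adjusted p = 0.000354) fell in the same test, although reads of such near-identical paralogs may be shared among them. The number of list members that fell was 4 without vehicle library 2 or 3, 5 without combination library 1 and 6 without vehicle libraries 1 and 2. The member that rose, Erap1, had an adjusted p of 0.0487 and was not called in 14 of the 16 fits with 1 library left out, all except those without vehicle library 1 or combination library 2. Its adjusted p there ran from 0.0528 to 0.197.

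Genes of macrophage identity and of innate defence rose in part. Among 24 tested identity genes 7 rose (29.2%, beside 4.69% of all tested genes) and 1 fell (4.17%, near the 4.25% of all tested genes), at a median of 0.01. Among 13 tested innate effectors 6 rose (46.2%) and 1 fell (7.69%), at a median of 0.15. No identity gene was called lower without vehicle library 2, 3 or 4 or without combination library 1 or 4, and 2 innate effectors fell without combination library 2. Lysozymes, which cleave bacterial cell walls, are members of both lists. Lyz2 was at 16500, 15200, 15500 and 16100 TPM under vehicle and at 21200, 19100, 20300 and 21300 TPM with both agents (log2 change 0.36, SE 0.05, adjusted p = 2.64e-05). With quantile normalization and limma the Lyz2 change was 0.21 and was not called (adjusted p = 0.0616). Its paralog Lyz1 was at 135 to 162 TPM and 208 to 253 TPM (log2 change 0.68, SE 0.07, adjusted p = 2.06e-06), a gene so similar to Lyz2 that reads may be shared. Itgam, the integrin chain CD11b, went from 60, 55.9, 67.1 and 63.4 TPM to 73.9, 79.2, 74.8 and 85.6 TPM (log2 change 0.38, SE 0.05, adjusted p = 2.34e-05). Acod1, which makes the antimicrobial metabolite itaconate, was at 14, 11.2, 12.7 and 12.6 TPM under vehicle and at 24, 23.3, 22.7 and 23.9 TPM with both agents. All 4 treated libraries, library 2 included, lay within 1 narrow band (log2 change 0.88, SE 0.08, adjusted p = 4.09e-07). Nlrp3, the inflammasome sensor that leads to interleukin 1 beta release, rose by 0.34 (SE 0.06, adjusted p = 0.000685), while complement C3 fell by 0.39 on the log2 scale (SE 0.07, adjusted p = 0.00112).

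Receptors of the myeloid surface included 4 of the genes with large increases. Clec4e, the C-type lectin Mincle, was at 18.1, 16.2, 21.4 and 19 TPM under vehicle and at 40.7, 23.4, 38.8 and 37.5 TPM with both agents (log2 change 0.86, SE 0.11, adjusted p = 2.34e-05). Clec4d, its partner lectin, had 192 to 214 TPM beside 359, 234, 350 and 371 TPM (log2 change 0.72, SE 0.09, adjusted p = 2.01e-05). Cd300a, an inhibitory receptor, had 17.4 to 20.2 TPM beside 35.4, 24.6, 35 and 34.8 TPM (log2 change 0.76, SE 0.09, adjusted p = 5.13e-06). These 3 genes were named under a rule that required no overlap of libraries, so all treated libraries exceeded vehicle by choice of the genes. Library 2 was the lowest treated one in each. Igsf6, an immunoglobulin-domain receptor of myeloid cells, behaved otherwise, at 33.4, 34.3, 25.5 and 30 TPM against 19.3, 15.2, 13.4 and 16 TPM, with library 2 the highest (log2 change 0.94, SE 0.12, adjusted p = 2.34e-05).

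**Figure D3:**
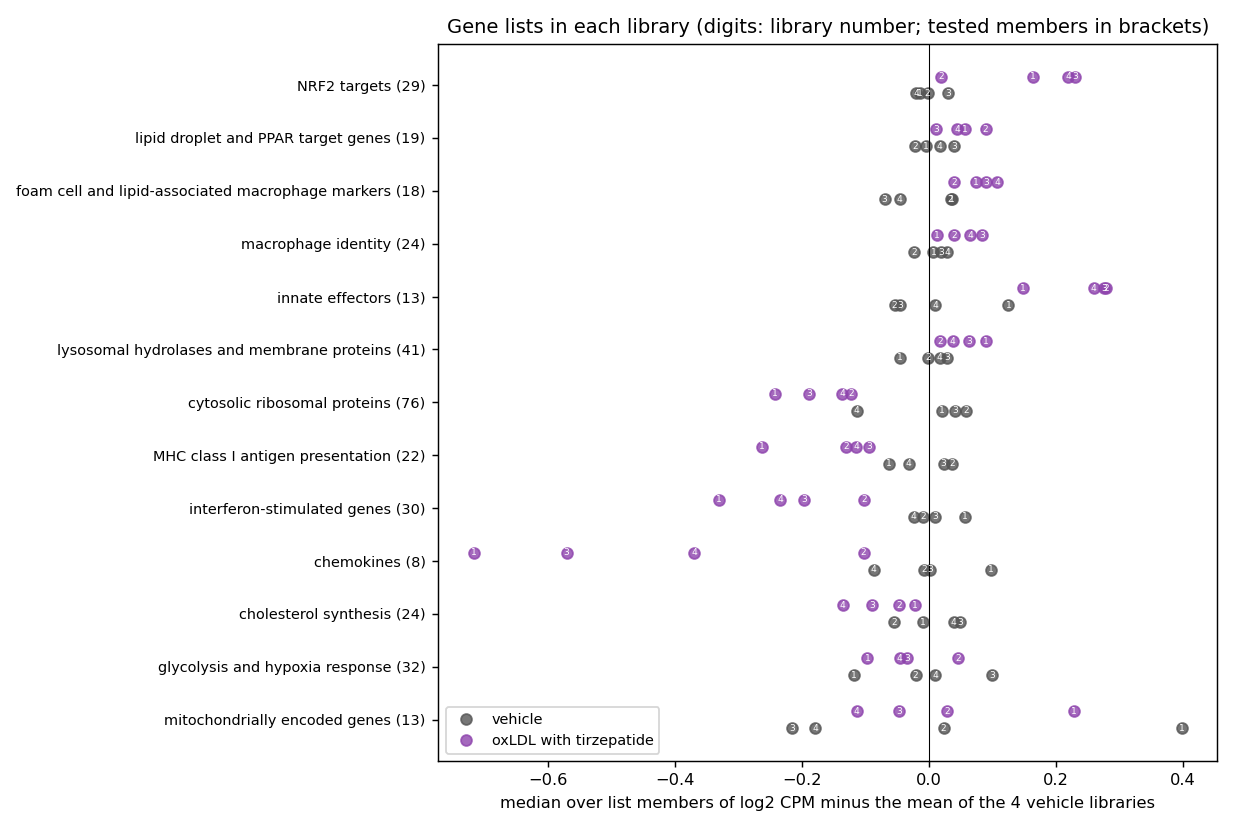
Median over the tested members of 13 gene lists of the log2 CPM in each library, minus the mean of the 4 vehicle libraries (horizontal axis), for vehicle and for both agents, with library numbers inside the points. NRF2 targets lie at 0.163, 0.219 and 0.23 in 3 treated libraries and at 0.019 in library 2, chemokines and interferon-stimulated genes lie to the left of 0 in all 4, and mitochondrially encoded genes run from −0.215 to 0.398 within vehicle and from −0.114 to 0.228 with both agents.

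Of 41 tested lysosomal hydrolases and membrane proteins, which digest the lipoprotein, 5 rose (12.2%, beside 4.69% of all tested genes) and 2 fell (4.88%, beside 4.25%), with a median of 0.04, and the number that fell was 1 in 12 of the 16 fits with 1 library left out. Lamp2, a main protein of the lysosomal membrane, rose from 303 to 339 TPM under vehicle to 401, 357, 370 and 377 TPM (log2 change 0.26, SE 0.05, adjusted p = 0.00213). The cathepsin gene Ctsl rose by 0.25 (adjusted p = 0.0066), Gusb by 0.22 (adjusted p = 0.0027), and the cathepsin gene Ctsh fell by 0.21 on the log2 scale (adjusted p = 0.0056). Of 17 tested subunits of the vacuolar proton pump 3 rose (17.6%, beside 4.69%), a number that was 1 without vehicle library 2, 3 or 4 or without combination library 1 or 3. Of 32 tested autophagy genes 1 rose (3.12%, near the 4.69% of all tested genes), and 4 rose without combination library 2, where 1 fell. No autophagy gene was called higher without vehicle library 2 or 3 or without combination library 1 or 4.

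Many cytosolic ribosomal protein genes fell, by little. All 76 were tested and 46 fell (60.5%, beside 4.25% of all tested genes), at a median log2 change of −0.19. None was called higher by edgeR, DESeq2 or at an unadjusted p under 0.05. The number that fell was 20 without vehicle library 2, 28 without vehicle library 3, 25 without combination library 1 and 21 without vehicle libraries 1 and 2, where the median was −0.13. By library, the list median lay between −0.243 and −0.122 with both agents, and vehicle library 4 lay at −0.114, next to combination library 2. Rpl3 had 2590, 2960, 3070 and 2870 TPM under vehicle and 2450, 2450, 2550 and 2570 TPM with both agents, a separation of the groups by a small step (log2 change −0.21, SE 0.04, adjusted p = 0.00133). Processed pseudogenes of ribosomal proteins may share reads with these genes.

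In glycolysis and the hypoxia response 4 of 32 fell (12.5%, beside 4.25% of all tested genes), among them the hexokinase gene Hk2 (log2 change −0.33, adjusted p = 0.00183) and Pfkp, a phosphofructokinase (−0.24, adjusted p = 0.00576), and 1 rose (3.12%, beside 4.69%), Pkm (0.18, adjusted p = 0.00669; not called without vehicle libraries 1 and 2, adjusted p = 0.115). The 13 mitochondrially encoded genes had no call by edgeR, DESeq2 or at an unadjusted p under 0.05, at a median of −0.03. That median was 0.26 without vehicle libraries 1 and 2, with 5 members called higher, and 5 were also called higher without vehicle library 1 alone. Mitochondrial transcripts took 8.32% to 11.2% of counts under vehicle and 8.1% to 10.5% with both agents. Of 19 heat shock chaperones 1 was called lower, a share of 5.26% that is near that of all genes (2 fell without any 1 of 5 libraries, which were vehicle 3 and 4, tirzepatide 1 and 4 and combination 1, and 1 rose without vehicle library 1). The called gene was Cryab, a small heat shock protein, which was at 32.2, 48.4, 55.2 and 37.3 TPM under vehicle and at 13.1, 18.7, 15.2 and 18.1 TPM with both agents. No library overlapped between the groups, although the vehicle libraries varied widely (log2 change −1.41, SE 0.16, adjusted p = 2.76e-06).

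Mitotic genes had 3 of 32 higher (9.38%, beside 4.69% of all tested genes). This number lay between 0 and 4 when single libraries were left out, with 0 without vehicle library 3 or combination library 1 and 1 without vehicle library 2 or 4 or combination library 4. Proteases that remodel matrix and their inhibitors had 12 tested members, at a median of −0.01. In each direction 2 of them were called (16.7%, beside 4.69% higher and 4.25% lower over all tested genes). Adam17 rose by 0.16 and Adam8 by 0.18 on the log2 scale, and no member was called higher without vehicle library 2 or combination library 1. Mmp9, which fell, was at 50, 59.5, 76.3 and 75.5 TPM under vehicle and at 35.5, 49.9, 48.7 and 44.4 TPM with both agents (log2 change −0.55, SE 0.1, adjusted p = 0.00083). The plasminogen activator gene Plau fell from 24.2 ± 1.07 to 17.3 ± 1.89 TPM (SD, n = 4), at a log2 change of −0.49 (adjusted p = 0.00161).

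To place these net changes, each agent alone was set beside the combination. All 3 comparisons share the 4 vehicle libraries, so their values are given side by side only. OxLDL alone gave 514 calls (4.54%; 2.49% higher and 2.05% lower) and tirzepatide alone 462 (4.08%; 2.34% higher and 1.74% lower). For Il1b the log2 changes were 3.64 with oxLDL, 1.45 with tirzepatide (adjusted p = 0.0949) and 3.85 with both. Plin2 changed by 1.03, 0.53 and 0.97, and Clec4e by 0.87, 0.13 (adjusted p = 0.576) and 0.86. Klf10, a Krüppel-like repressor induced by many signals, and Txnip, a thioredoxin-binding protein that restrains glucose uptake, were called with tirzepatide and with both agents. Klf10 changed by 0.08 with oxLDL (adjusted p = 0.422), 0.49 with tirzepatide and 0.57 with both, and Txnip by −0.11 (adjusted p = 0.246), 0.43 and 0.36. For interferon-stimulated genes the list medians were −0.3 with oxLDL, 0.13 with tirzepatide and −0.23 with both. For ribosomal protein genes they were −0.1, −0.14 and −0.19.

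**Figure D4:**
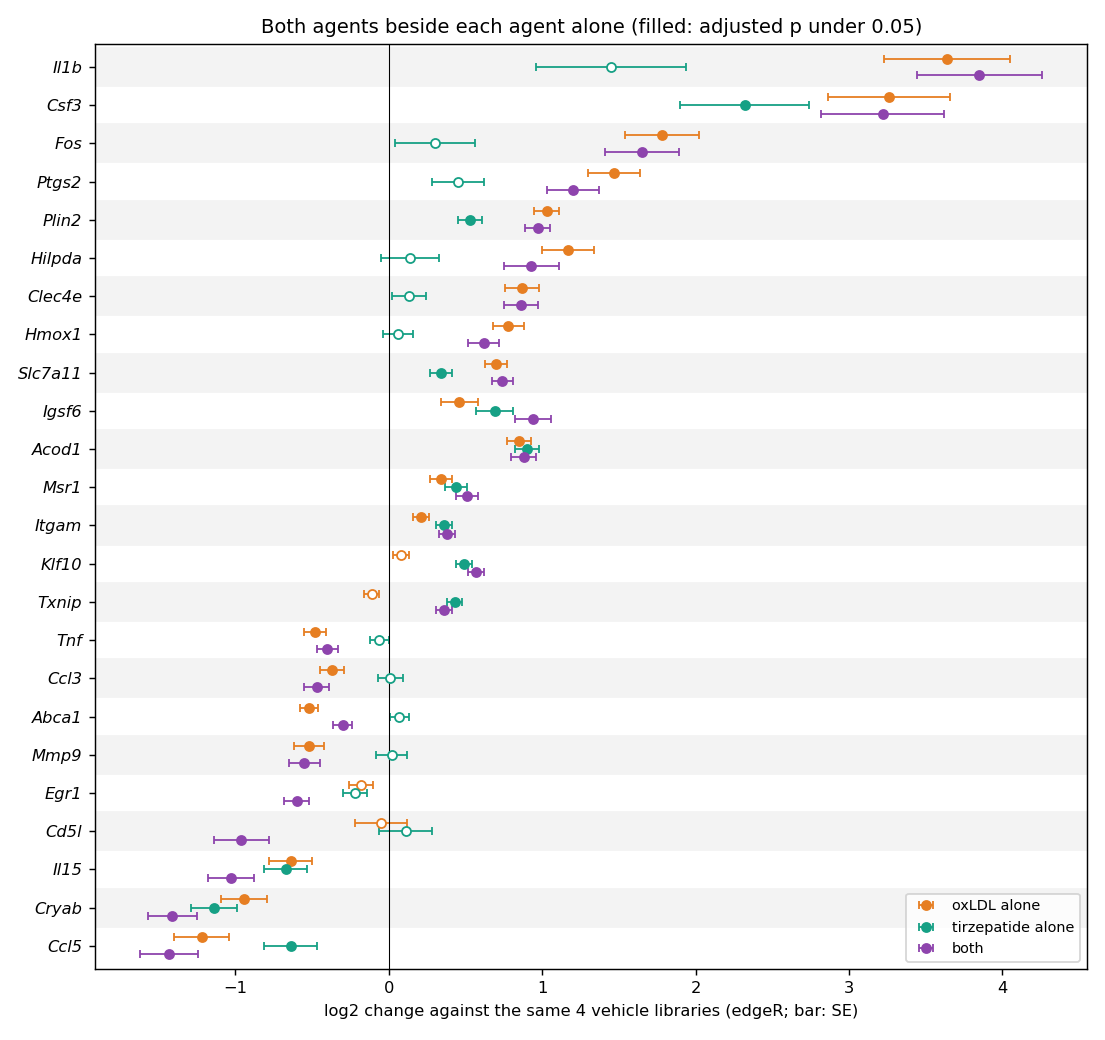
Log2 change with its SE (edgeR, horizontal axis) of 24 genes for oxLDL alone, tirzepatide alone and both agents, each against the same 4 vehicle libraries. Filled points have an adjusted p under 0.05. For Klf10 and Txnip the combination lies beside tirzepatide, for Tnf, Ccl3 and Mmp9 beside oxLDL, and for Cd5l and Egr1 it lies below both single agents.

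The differences themselves were fitted as well. The combination differed from oxLDL alone in 4 genes (0.0353%), all higher in this fit. Other settings called genes both ways. DESeq2 gave 20 higher and 13 lower, edgeR with no filter on low counts 17 and 15, and edgeR with a block for the replicate number 9 and 8. Klf10 and Txnip were called in all 16 fits with 1 library left out. The number of calls was 8 without vehicle library 1, 7 without combination library 1, 3 without combination library 2, 2 without oxLDL library 2, 3 or 4, and 8 without vehicle libraries 1 and 2. The 4 genes were Klf10 (log2 difference 0.48, SE 0.05, adjusted p = 4.83e-06), Txnip (0.47, SE 0.05, adjusted p = 4.83e-06), Arrdc4, an arrestin-domain relative of Txnip (0.43, SE 0.07, adjusted p = 0.011), and Ints6l (0.28, SE 0.05, adjusted p = 0.0369), the last named after its value was seen. Arrdc4 was not called without combination library 2 (0.34, adjusted p = 0.0525). It was not called without oxLDL library 2, 3 or 4 either, and over these 4 fits its adjusted p ran up to 0.117. Among the fits with 1 library left out, Ints6l was called only without vehicle library 1 or 3, tirzepatide library 4 or combination library 3. Its log2 change against vehicle was 0.08 with both agents (not called, adjusted p = 0.382) and −0.2 with oxLDL alone (adjusted p = 0.02). Against vehicle, Klf10 was at 52.1, 50.6, 56.3 and 51.7 TPM and at 79.2, 86.3, 76.9 and 76.1 TPM with both agents (log2 change 0.57, SE 0.05, adjusted p = 2.17e-07). Txnip was at 645, 705, 736 and 752 TPM and at 864, 1030, 857 and 914 TPM (log2 change 0.36, SE 0.05, adjusted p = 4.43e-05). Neither gene overlapped between the groups, and in both library 2 was the highest treated one. The Arrdc4 change against vehicle, 0.27, was 0.18 without combination library 2 (adjusted p = 0.0786), and the gene was not called without vehicle library 2 either (adjusted p = 0.0775). It was not called without vehicle libraries 1 and 2 (adjusted p = 0.0798).

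From tirzepatide alone the combination differed in 174 genes (1.54%), 86 higher (0.76%) and 88 lower (0.777%). This number was 444 without combination library 2, and 64, 93 and 58 without combination libraries 1, 3 and 4. It was 102, 98 and 94 without tirzepatide libraries 2, 3 and 4, 243 without vehicle libraries 1 and 2, and 594 without these and combination library 2. Il1b was higher by 2.39 (adjusted p = 0.00106), Fos by 1.35 (adjusted p = 0.00246), Clec4e by 0.72 (adjusted p = 0.00106) and Hmox1 by 0.57 (adjusted p = 0.00234), whereas Ifi44 was lower, by −0.65 (adjusted p = 0.00106). Cd5l, a secreted macrophage protein that binds lipids, was called with both agents and with neither agent alone. It was at 5.28, 5.18, 6.54 and 5.36 TPM under vehicle and at 1.97, 3.77, 2.97 and 2.8 TPM with both agents (log2 change −0.96, SE 0.18, adjusted p = 0.00172), beside −0.05 with oxLDL and 0.11 with tirzepatide. The difference from tirzepatide alone was −1.07 (adjusted p = 0.00234), that from oxLDL alone was −0.91 (adjusted p = 0.0847), and the interaction did not pass (adjusted p = 0.127). Among the fits with 1 library left out, Cd5l was called against oxLDL alone only without combination library 2. It was also called there without that library and vehicle libraries 1 and 2, and with quantile normalization and limma. Egr1 was lower than with tirzepatide alone by −0.39 (adjusted p = 0.0162), and its difference from oxLDL alone was −0.42 (adjusted p = 0.0847). With 1 library left out, Egr1 was called against oxLDL alone only without vehicle library 1 or combination library 3.

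An interaction, that is, a departure of the combination from the sum of the single log2 changes, was called in 8 genes (0.0707%), positive in 3 (0.0265%) and negative in 5 (0.0442%). Only Acod1 was called without vehicle library 2, oxLDL library 2, oxLDL library 3 or tirzepatide library 1. The number was 16 without vehicle library 4, 15 without vehicle library 1, 9 without combination library 2, 5 without combination library 1 or vehicle libraries 1 and 2, 4 without oxLDL library 1 and 3 without tirzepatide library 3. For Acod1 it was −0.87 (SE 0.11, adjusted p = 0.000704), since each agent alone and both together gave nearly equal changes of 0.85, 0.9 and 0.88. Plin2 (−0.59), Sema3e (−0.4), Cxcl2 (−0.7) and Nlrp3 (−0.42) also fell short of the sum. For Stc1, Chrnb1 and Dixdc1 the interaction was 0.53, 0.84 and 0.47, all 3 being lower than vehicle with each agent and with both. Chrnb1 and Dixdc1 were named after their values were seen. Besides the fits that kept only Acod1, the Chrnb1 call was lost without oxLDL library 1, tirzepatide library 3 or combination library 3. The Dixdc1 call was also lost without oxLDL library 1 or 4, tirzepatide library 4, or combination library 1 or 4.

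Transcripts of the drug's own receptors were scarce. Gipr, the GIP receptor gene, ranged from 2.08 to 3.64 TPM under vehicle and from 2.38 to 3.1 TPM with both agents, and its log2 change of 0.01 (SE 0.22, adjusted p = 0.99) changed sign in several fits with 1 library left out. Glp1r, the GLP-1 receptor gene, was at no more than 0.043 TPM in any of the 8 libraries and was not tested. Of 25 tested incretin receptor and cyclic AMP response genes, 3 rose (12%, beside 4.69% of all tested genes) and 3 fell (12%, beside 4.25%), at a median of 0.01. The number that fell was 1 without vehicle library 2, vehicle library 3 or combination library 4. Crem, a transcriptional target of cyclic AMP signalling, was at 27.4, 29.9 and 31.5 TPM in combination libraries 1, 3 and 4, at 12 TPM in library 2 and at 11.2 to 14.8 TPM under vehicle (log2 change 0.7, SE 0.17, adjusted p = 0.0104; 0.91 without library 2). It was not called with only the 2 groups in the fit (adjusted p = 0.0568) or without the libraries numbered 1 (adjusted p = 0.0543). Its log2 change was 1.02 with oxLDL alone and −0.09 with tirzepatide alone (adjusted p = 0.834).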

How the data were processed

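Members, gene lists, the naming rule and the tests were chosen with earlier results of these data known. For 21965 genes the authors deposited expected counts, as RSEM estimates them and with no scaling between libraries, together with TPM. Per the submitters' processing notes, the tools included Bowtie2 2.2.8, RSEM, StringTie 1.3.1 and fastp 0.18.0, and the builds were GRCm39 and mm39. The annotation release and the strand setting of the counting are not given in the sources used here, so antisense and overlapping genes may share reads. Gene coordinates in that build are not given. Promoters come from RefSeq in GRCm38.p6, matched by symbol (8888 of 11312 symbols of tested genes).

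Expected counts were rounded and tested with edgeR 4.0.16 in R 4.3.3: filterByExpr (minimum count 10, 11319 genes kept), TMM, glmQLFit and glmQLFTest, with all 16 libraries in 1 fit and a mean per group. P-values were adjusted by Benjamini-Hochberg over all tested genes, and genes under 0.05 were called. Adjusted p-values and log2 changes of genes come from this test and fit, except where another method, a smaller set of libraries or another contrast is named beside them. Levels are TPM. Replicates differed beyond counting error (chi-square per degree of freedom 3.1 to 17.7; biological coefficient of variation 0.0633). The script was tested on simulated data.

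Genes were named as the 15 called each way with the largest change, at least 5 TPM in the higher group, no overlap of libraries and not on the acinar list, up to 4 called members of each of 33 lists each way, 24 fixed genes, and genes called in the other contrasts; not all of them are printed. For the 15 genes each way, the absence of overlap was thus a condition of the choice and not a separate result. Lists were described by counts and medians only. Alternatives were a replicate block, only the 2 groups in the fit, DESeq2 size factors, DESeq2 1.42.0, quantile normalization with limma 3.58.1, other filters, and libraries left out singly or together.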

Additional observations from a re-analysis of the deposited data

Results flagged for a closer look

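In groups of 4 libraries, a library was marked where its gap to the nearest other one was larger, as a share of the group's range, than the 95% critical value of Dixon's test. Chance marks about 1 in 20 groups, and 348 groups were examined. Combination library 2 was marked in 9 genes. It was the lowest with both agents for Il1b (3.91 TPM), Cd300a (24.6 TPM), Slc7a11 (116 TPM), Clec4d (234 TPM), Lyz1 (208 TPM), Dpep2 (7.85 TPM) and Ap4s1 (12.4 TPM), and the highest for Igf2bp2 (10.6 TPM) and Scd2 (228 TPM). In all 9 genes it lay on the side of vehicle. Other combination libraries were marked for Ddah2 (library 3, 5.78 TPM), Csf1 (library 4, 2.93 TPM) and Nfkbib (library 1, 43.3 TPM). Combination library 1 was also marked for the list medians, as log2 from the vehicle mean, of MondoA and ChREBP targets (0.19), of ATF4 targets with the unfolded protein response (−0.106) and of innate effectors (0.148).

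Among the vehicle libraries, library 1 was marked for Ppm1j (16.7 TPM), Creb3l2 (6.65 TPM) and Egr1 (8.32 TPM), library 2 for Csf1 (5.94 TPM) and Hpgds (14.3 TPM), library 3 for Cd5l (6.54 TPM) and Lipe (16.8 TPM), and library 4 for Hif1a (1180 TPM). Some of these calls were lost with 1 library left out. Creb3l2 was not called in 13 of the 16 such fits (adjusted p 0.0515 to 0.165 by edgeR) and Nfkbib in 11 (0.0569 to 0.199). Csf1 was not called without vehicle library 2 (adjusted p = 0.0528 by edgeR), and Hpgds was not called without vehicle library 3 (0.0828), vehicle library 4 (0.0622), combination library 1 (0.103) or combination library 4 (0.0746).

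The effect of tirzepatide differed between cells with and without oxLDL, by the interaction term, for Acod1 (log2 −0.87), Cxcl2 (−0.7), Plin2 (−0.59), Nlrp3 (−0.42), Sema3e (−0.4) and Stc1 (0.53). Leaving out 1 library ended this call in 13 of 16 fits for Nlrp3, 7 for Plin2, 7 for Cxcl2, 5 for Stc1 and 4 for Sema3e, and in none for Acod1.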

How the results depend on the processing

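Of 129 named genes that were called, 71 were called under all 26 alternatives, 58 lost the call under at least 1, and none changed direction. Counts with only the 2 groups in the fit were 410 calls, 191 higher and 219 lower. With single libraries left out, calls ran from 475 to 1450, higher ones from 235 to 733 and lower ones from 240 to 717. A block for the replicate number gave 1357 calls (709 higher, 648 lower). Deviations of same-numbered libraries correlated at 0.189, −0.061, 0.014 and 0.11. The same-numbered vehicle library was the best match for combination libraries 1 and 4 and not for 2 and 3. Mitochondrial shares of counts fell from library 1 to 4 under vehicle (11.2%, 9.53%, 8.39% and 8.32%) and with both agents (10.5%, 9.37%, 8.38% and 8.1%). These values do not settle whether the numbers pair the samples, and a shared batch was not tested. Other settings gave 863 (quantile normalization) to 1188 calls (without combination library 2 and vehicle libraries 1 and 2), or 765 without the libraries numbered 1.

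Counts for the other contrasts under these settings were added after the data were seen. Against oxLDL alone, tirzepatide alone and for the interaction, beside 4, 174 and 8 calls, they were 17, 378 and 29 with the block, 32, 282 and 39 with no filter, 33, 318 and 56 with DESeq2, and 13, 86 and 4 without the libraries numbered 1. Without vehicle libraries 1 and 2 there were 8 against oxLDL and 5 for the interaction, and without these and combination library 2 there were 594 against tirzepatide. With single libraries left out they ran from 2 to 8, 58 to 444 and 1 to 16.

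List medians moved beyond the spread between replicates in 46 of 858 cases. That spread was the SD of the list median over the combination libraries, which is wide where 1 of them stands apart. Chemokine medians from −0.59 to −0.27 with single libraries left out did not count as moved. The cases include fits without an oxLDL or tirzepatide library, which enters neither group mean of this comparison. Without vehicle libraries 1 and 2 the medians that moved were −0.1 (NF-kB), 0.02 (lipid droplet), −0.14 (scavenger receptors), 0.26 (mitochondrially encoded) and 0.3 (innate effectors). Without these and combination library 2 they were 0.03 (lipid droplet), −0.17 (scavenger receptors), −0.13 (fatty acid synthesis), 0.24 (mitochondrially encoded), −0.12 (glycolysis), −0.03 (macrophage identity), 0.23 (innate effectors) and 0.04 (metalloproteinases). Without the libraries numbered 1 they were −0.15 (M2), −0.11 (prostaglandin synthesis), −0.14 (scavenger receptors), 0.04 (autophagy), −0.04 (DNA replication) and 0.28 (innate effectors). A 5 TPM filter gave −0.02 (M1), −0.02 (scavenger receptors), 0.24 (innate effectors) and 0.06 (metalloproteinases), and quantile normalization 0.21 (innate effectors) and 0.07 (metalloproteinases). With single libraries left out, medians ran from −0.12 to −0.05 (prostaglandin synthesis), 0.04 to 0.1 (lipid droplet), −0.12 to −0.04 (scavenger receptors), 0 to 0.05 (lysosomal), 0 to 0.04 (autophagy), −0.11 to 0.18 (mitochondrially encoded), −0.02 to 0.03 (heat shock), −0.01 to 0.04 (macrophage identity), 0.13 to 0.25 (innate effectors) and −0.07 to 0.1 (metalloproteinases).

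Lcn2, an iron-binding innate protein, had a log2 change of 0.02 that was not called and changed sign with the block (−0.01), with quantile normalization (−0.08), without vehicle library 2 (−0.05) or 3 (−0.02), without combination library 2 (−0.3, adjusted p = 0.0228) and without that library and vehicle libraries 1 and 2 (−0.29, adjusted p = 0.0163). It was 0.15 without combination library 1. Gipr gave −0.05, −0.13, −0.02 and −0.09 without vehicle library 1, vehicle library 3, combination library 3 and combination library 4. The cause of these shifts was not tested. Depth limits low genes, and Glp1r, Cd36, Arg1 and Mrc1 could not be compared.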

Other observations

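Some genes of low level changed by more than 2-fold and were named after their values were seen. Il11, a cytokine of the interleukin 6 family, was at 0.736, 0.304, 0.389 and 0.691 TPM under vehicle and at 2.12, 0.691, 4.28 and 3.31 TPM with both agents (log2 change 2.39, adjusted p = 0.00123 by edgeR; 2.72 without combination library 2). Cd93, a C-type lectin-like receptor of myeloid and endothelial cells, was at no more than 0.125 TPM under vehicle and at 1.48, 0.035, 1.88 and 1.04 TPM with both agents (log2 change 3.98, adjusted p = 0.000694; 4.38 without combination library 2). With vehicle near 0 the size of the Cd93 change is not well fixed, and it was 6.63 without vehicle libraries 1 and 2. In both genes 3 treated libraries were high and combination library 2 lay inside the vehicle range. Acy1, an aminoacylase, fell from 3.66, 4.49, 4.47 and 3.52 TPM to 1.01, 0.849, 0.866 and 1.43 TPM, with library 2 among the lowest (log2 change −2.29, adjusted p = 1.42e-05). Its log2 change was −2.36 without combination library 2 and −2.23 without vehicle libraries 1 and 2. Aqp1, a water channel, fell as well (log2 change −1.29, adjusted p = 0.0029).

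Clu, a secreted chaperone, met the naming rule with a log2 change of −1.7 (adjusted p = 0.0101), from 14.7, 6.44, 4.11 and 3.81 TPM to 3.45, 2.11, 3.46 and 2.01 TPM. Its order over the vehicle libraries matched that of the acinar sums, and without vehicle library 1 the change was −0.97 (adjusted p = 0.0534). It was −0.59 (adjusted p = 0.329) without vehicle libraries 1 and 2 and −0.52 (adjusted p = 0.418) without these and combination library 2. The regenerating islet-derived genes Reg2 and Reg3b, made by exocrine pancreas, not on the acinar list and named after their values were seen, were called lower by −2.01 and −2.76 and were at 0.16 and −0.48 without vehicle libraries 1 and 2. The part of acinar transcripts in the Clu result was not tested beyond these values.

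Lcn2 was at 570 TPM in combination library 2 and at 248, 310 and 314 TPM in the other 3 libraries with both agents, beside 302 to 393 TPM under vehicle and a mean of 605 ± 41 TPM with tirzepatide alone and 258 ± 17.1 TPM with oxLDL alone (SD, n = 4).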
